A study of Mus musculus with 11 samples.

Results

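The collagen genes of the developing mouse cochlear duct floor were taken as every row of the 4 normalized tables whose symbol has the form Col, a type number, the letter a and a chain number. The rule found 42 genes among the 24898 listed in any of the 4 tables: 38 of 20504 at E14, 39 of 21635 at E16, 40 of 23137 at P1 and 40 of 21500 at P7, with 36 in all 4. The rule uses names only and no measured value. Single cells had been dissociated from the cochlear ducts of wildtype CD1 mice at embryonic day (E) 14, E16, postnatal day (P) 1 and P7 and sequenced as 3′ libraries with unique molecular identifiers (UMIs). E14 and P7 had 2 libraries each, E16 had 3 and P1 had 4, each made from a separate collection of animals of either sex that were pooled, and no group carried a transgene or a treatment. The dissection aimed at the duct's epithelial floor alone, and mesenchymal and glial cells in the tables are cells that remained with it.

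Collagens are trimers of chains wound into a triple helix. Fibrillar types (II, XI, I, III, V, XXVII) form banded or thin fibrils, FACIT types such as IX, XII, XIV and XVI attach to fibril surfaces, type IV forms the sheet of basement membranes, and type XVIII is a proteoglycan of the epithelial and vascular basement membrane zone. In the cochlea, types II, IX and XI are known components of the tectorial membrane, which is secreted by the floor of the duct, including by the columnar cells of Kölliker's organ (KO) on its medial side and by interdental cells at its medial edge. Chains of types II, IX, XI and IV are also known from inherited hearing loss.

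Libraries held 1247 to 5598 cells, with median UMIs per cell of 2478 to 5648 and 3828399 to 23523802 UMIs in all. Values are the mean over cells of a cell's UMIs scaled to a total of 1000000 (CPM), per library, then mean ± SD over the 2, 3, 4 and 2 libraries of E14, E16, P1 and P7, and CPM from 3′ ends is not scaled by gene length. Cells were assigned to regions by lists of marker genes that held no collagen, which placed 58.37%, 66.26%, 69.21% and 54.96% of cells at the 4 ages. Some lists did hold other matrix genes. Lateral KO cells were gated on Tectb, Igfbp3 and Tecta, of which Tectb and Tecta code for tectorial membrane proteins. The medial KO list held Epyc and Dcn, and the mesenchymal list Bgn, Ogn, Postn, Coch and Emilin2. Collagen levels in these classes are therefore not independent of the gate. The defining markers that were kept aside were higher in the gated cells of every library for at least 2 of 3 or 2 of 4 markers in the regions used, except for a class at E14 gated on Oc90, Otx2 and Vmo1, where 1 of 2 was. Gates for interdental, inner phalangeal, lateral floor and medial KO cells did not pass that check or matched no cluster of cells at P7, and those classes are not described there. Among P1 gates, 41.5 to 83.7% of interdental and 54.7 to 86.8% of lateral floor cells fell in clusters of that name. Shares were 62.5 to 85.9% in P1 and 58.15% and 58.11% in E14 medial KO cells, and 99.1 to 100% in P1 hair cells. At or near a gate limit lay 24 of 32 and 35 of 71 P7 mesenchymal cells. For the Oc90 class it was 116 of 154 and 177 of 228. In both classes 97.4 to 100% of cells fell in clusters of that name. P1 replicate 1 stood apart from the other 3 P1 libraries for several collagens, and leaving it out ended 2 of the 132 calls that could be recomputed without it. Other libraries weighed more: 23 of 130 calls ended without P1 replicate 2, 25 of 131 without replicate 3 and 13 of 132 without replicate 4. Without E16 replicate 1 or 2, 22 of 78 calls ended each time. Any pair of libraries shared at most 36 cell barcodes, and at most 0.958% of the cells of the smaller library. In 9 of the 13 region comparisons at E14 and P7, which rest on 2 libraries each, the fit took a gene's spread wholly from genes of like level, so that the very small adjusted p there do not describe how the 2 libraries of that gene differed; their values are given beside them. Libraries were the replicates, and p-values measure the spread between these pooled collections.

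Of the 42 collagens, 30 reached a mean of 20 CPM in at least 1 age or class: 9 of 11 fibrillar chains, 7 of 9 FACIT chains, 5 of 6 type IV chains, 3 of 7 beaded-filament and related chains, both multiplexins (Col15a1 and Col18a1), 2 of 4 transmembrane chains, 1 of 2 short-chain network chains and the anchoring fibril chain Col7a1. The other 12 stayed under 20 CPM everywhere, from 1.03 CPM for Col17a1 to 18.2 CPM for Col6a3 in their highest class; they are Col4a6, Col5a3, Col6a3, Col6a4, Col6a6, Col8a2, Col17a1, Col19a1, Col20a1, Col23a1, Col24a1 and Col28a1. A filter on low values (a mean of 10 CPM over the libraries compared) left 31 collagens tested in at least 1 comparison and 29 called in at least 1. In age comparisons the mean is over all libraries of all ages in the fit. Over all cells, Col3a1 and Col1a2 passed only through their P7 level and Col12a1 only through its P1 level. In region comparisons the mean is over both arms. Col4a3 and Col4a4 in P7 pillar cells and Col22a1 in P7 Deiters' cells were tested only through the class where they were high. The same holds for Col7a1 in hair cells, Col14a1 in lateral floor cells and Col6a1 in E14 prosensory cells. Col4a3 was listed only at P1 and P7.

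Members that share a promoter region are shown first, because the type IV chains are described below as pairs. Col4a1 and Col4a2, the common basement membrane chains, start head to head on chromosome 8, with annotated transcripts that overlap by 22 bases. Col4a3 and Col4a4, chains of the specialised network of kidney and inner ear, start in opposite directions on chromosome 1 with 71 bases between the annotated starts. Sequences are from RefSeq for GRCm38.p6, plus strand; 33 of the 42 genes matched a promoter there. For the first pair, capitals mark the overlap of the annotated transcripts (chr8:11312805-11312826).
Col4a1 and Col4a2, chr8:11312777-11312854: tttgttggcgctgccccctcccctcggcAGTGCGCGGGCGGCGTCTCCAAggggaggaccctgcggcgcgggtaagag
Col4a3 and Col4a4, between the start sites, chr1:82586850-82586920: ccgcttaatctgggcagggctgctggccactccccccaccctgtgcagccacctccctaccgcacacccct
Col9a1, which had the highest level of the 42 chains over all cells at P1 and P7, has annotated start sites 17593 bases apart on chromosome 1, from which a long and a short form are known. Both 300-base windows are given with the first transcribed base in capitals. Counts at the 3′ end do not tell the forms apart.
Col9a1, upstream start, chr1:24177360-24177659: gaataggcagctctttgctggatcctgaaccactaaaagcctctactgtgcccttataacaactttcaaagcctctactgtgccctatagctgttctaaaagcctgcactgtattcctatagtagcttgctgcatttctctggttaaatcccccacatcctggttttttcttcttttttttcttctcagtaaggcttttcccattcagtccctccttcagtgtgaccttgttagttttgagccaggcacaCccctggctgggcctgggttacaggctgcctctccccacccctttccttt
Col9a1, downstream start, chr1:24194953-24195252: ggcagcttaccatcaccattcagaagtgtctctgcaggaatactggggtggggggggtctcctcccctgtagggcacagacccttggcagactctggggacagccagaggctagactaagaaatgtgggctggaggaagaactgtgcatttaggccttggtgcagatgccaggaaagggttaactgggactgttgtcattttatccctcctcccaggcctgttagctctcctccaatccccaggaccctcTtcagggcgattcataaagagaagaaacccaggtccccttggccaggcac
The core of the SOX family motif (ACAAT or ATTGT, both strands) was found in 2 of the 36 windows of 300 bases at collagen starts and in 31.02% of 32851 windows of the same length, and the TATA box (TATAAA or TTTATA) in 4 of 36 and in 13.62%. No promoter was matched for Col1a1, Col2a1, Col4a3, Col5a2, Col9a3, Col12a1, Col14a1, Col22a1 and Col26a1, so the 36 windows do not cover these genes. The counts are matches of letters in a short window and say nothing of binding.

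Collagen transcripts took 0.352 ± 0.0255% of the UMIs of all cells at E14 and 0.469 ± 0.0785% at E16, then 0.922 ± 0.0777% at P1 and 0.776 ± 0.0818% at P7. Col2a1 and the type IX chains Col9a1, Col9a2 and Col9a3 made up 75.1 to 91.4% of that in the 11 libraries. The share was highest in P7 cells gated as mesenchymal, at 2.65 ± 0.329%, then in P1 lateral KO cells, at 1.43 ± 0.168%. It was lowest in hair cells, at 0.142 ± 0.00382%, 0.0777 ± 0.0175%, 0.0754 ± 0.0125% and 0.0699 ± 0.00713% at the 4 ages. Hair cells are the sensory receptors and served here as the low reference: Col9a1 gave 1 or more UMIs in 5.03 to 20.9% of P1 hair cells after thinning to 1500 UMIs (13.8 to 51.6% unthinned, median depths 5320.0 to 9642 UMIs), against 95.1 to 98.3% of P1 lateral KO cells (99.1 to 99.9% unthinned, median depths 4191 to 5963). Levels near those of hair cells are not read as expression.

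Over all cells, type XI chains rose from E14 to E16, Col9a1, Col9a3, Col11a2, Col16a1 and Col2a1 rose from E16 to P1, and from P1 to P7 the fibril-surface chains Col9a3, Col12a1 and Col16a1 fell while the type I and III chains Col1a2 and Col3a1 rose. From E14 to E16, 2 of 16 collagens tested were higher and none was lower (3.53% higher, 4.65% lower). Here and after the counts that follow, the percentages in parentheses are the shares of all genes tested that were called higher and lower in the same comparison. These were the type XI chains: Col11a1 went from 99.6 and 109 CPM in the 2 E14 libraries to 288, 282 and 187 in the 3 E16 libraries, and Col11a2 from 34.3 and 37.3 to 86.4, 102 and 78.8. No E14 library reached an E16 library for either chain. Type XI nucleates thin cartilage-type fibrils. The log2 differences were 1.18 ± 0.26 (SE; adjusted p = 0.0215, limma with Benjamini-Hochberg adjustment over all genes, as throughout) and 1.1 ± 0.24 (adjusted p = 0.0204) on the log2(CPM + 10) scale. The median over all genes was -0.15. Both calls were lost without E16 replicate 1 or 2. A fit without an E14 library keeps a single library at that age, with the spread taken from the other ages, and does not show whether the calls rest on that library. Over the same step the 10 mesenchymal markers went from 35.5 and 37.4 to 62.2 to 74.9 CPM, the 5 endothelial markers from 14.5 and 19.5 to 32.4 to 66.5 and the 5 erythroid markers from 0.894 and 40.8 to 32.7 to 949. Their part in the type XI values was not tested.

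From E16 to P1, 5 of 16 collagens rose and none fell (6.49% higher, 6.26% lower). Col9a1 stood at 472, 694 and 767 CPM in the E16 libraries and at 2758, 1949, 1796 and 2559 in the P1 libraries, without overlap. Its log2 difference was 1.80 ± 0.21 (adjusted p = 2.24e-04). The partner chain Col9a3 rose from 791 ± 312 to 2029.7 ± 145 CPM (log2 1.42 ± 0.22, adjusted p = 0.00129), whereas Col9a2, the chain with which both assemble, had 926, 1179 and 1732 CPM at E16 and 1578, 2092, 1927 and 2006 at P1 and did not pass (log2 0.61 ± 0.20, adjusted p = 0.0686). Col11a2 rose by 1.1 ± 0.20, Col16a1, a FACIT chain, by 0.99 ± 0.21 and Col2a1, the main fibrillar chain of cartilage-type matrix, by 0.87 ± 0.21 (adjusted p = 0.00411, 0.00886 and 0.0165). For Col2a1, P1 replicate 1 had 1254 CPM against 2207 to 2307 in the other 3 libraries, and the call was lost without E16 replicate 1 or 2 or without P1 replicate 2 or 3. The count of 5 became 8 without E16 replicate 3 or P1 replicate 1 and 3 without E16 replicate 1, where Col16a1 was lost as well. Over this step the mesenchymal markers went from 62.2 to 74.9 CPM at E16 to 23.4 to 44.8 at P1. The erythroid markers went from 32.7 to 949 down to 0.955 to 63.2, and the cartilage markers from 0.529 to 1.10 up to 0.852 to 22.5. Their part was not tested.

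From P1 to P7, 2 of 16 collagens rose and 6 fell (10.0% higher, 10.5% lower). Col3a1 rose from 0.168, 0.0831, 0.224 and 0.420 CPM in the P1 libraries to 144 and 457 in the P7 libraries, and Col1a2 from 4.96, 7.86, 8.28 and 19.6 to 192 and 389.9, log2 differences of 4.71 ± 0.31 and 3.87 ± 0.28 (adjusted p = 5.45e-07 and 1.26e-06). No P1 library came near a P7 library, and the size of the difference depended on the pseudocount, from 2.64 for Col3a1 with 50 CPM to 7.72 with 1 CPM. Both chains passed the filter on low values only through their P7 level, so the calls are not independent of that level. Markers of other cell types moved with them: the 10 mesenchymal markers summed to 23.4 to 44.8 CPM at P1 and 273 to 436 at P7, and 5 bone markers (Bglap, Ibsp, Sp7, Alpl and Runx2) to 0.30 to 1.59 CPM at P1 and 505 to 1361 at P7. The 7 glial markers summed to 22.97 to 28.5 CPM at P1 and 817 to 2627 at P7, the 5 endothelial markers to 7.29 to 48.7 and 76.6 to 85.4, and the 5 neuronal markers to 7.54 to 11.01 and 41.3 to 50.3. The cartilage markers summed to 0.852 to 22.5 CPM at P1 and 24.1 and 47.9 at P7. With the gated mesenchymal and glial cells left out of P7, the differences were 4.22 for Col3a1 and 3.50 for Col1a2. In the cells that were left, the bone markers summed to 245 and 762 CPM, the mesenchymal markers to 216 and 296 and the glial markers to 86.9 and 173. The part of these cell types in the rise was not tested further. Col27a1, a fibrillar chain of developing cartilage, fell from 111, 112, 138 and 77.4 to 19 and 34.6 CPM (log2 -1.71 ± 0.27, adjusted p = 7.18e-04).

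The FACIT chains Col12a1 (-1.52), Col9a3 (-1.0) and Col16a1 (-0.97), the multiplexin Col18a1 (-0.88) and the fibrillar chain Col5a1 (-0.60) also fell on the log2 scale, with adjusted p of 0.0226, 0.0125, 0.0121, 0.0224 and 0.0155. Col9a1 was at 2664 and 2848 CPM in the P7 libraries, which overlapped the P1 range, and was not called (log2 0.30 ± 0.23, adjusted p = 0.409). Col12a1 was at 5.51, 59.3, 37.9 and 39.0 CPM in the P1 libraries, with replicate 1 at the P7 level of 2.78 and 5.10. Col12a1 passed the filter on low values only through its P1 level. The calls for Col12a1, Col9a3 and Col18a1 were lost without either P7 library and those for Col16a1 and Col5a1 without P7 replicate 4; Col12a1 was also lost without P1 replicate 3 and Col18a1 without P1 replicate 2 or 3. With the replicate number as a block the count was 3, and it was 3 as well without P7 replicate 4, 5 without P7 replicate 5 and 12 without P1 replicate 1. In these means over all cells, a change in how many cells of a type were captured and a change in RNA per cell cannot be told apart.

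**Figure D1:**
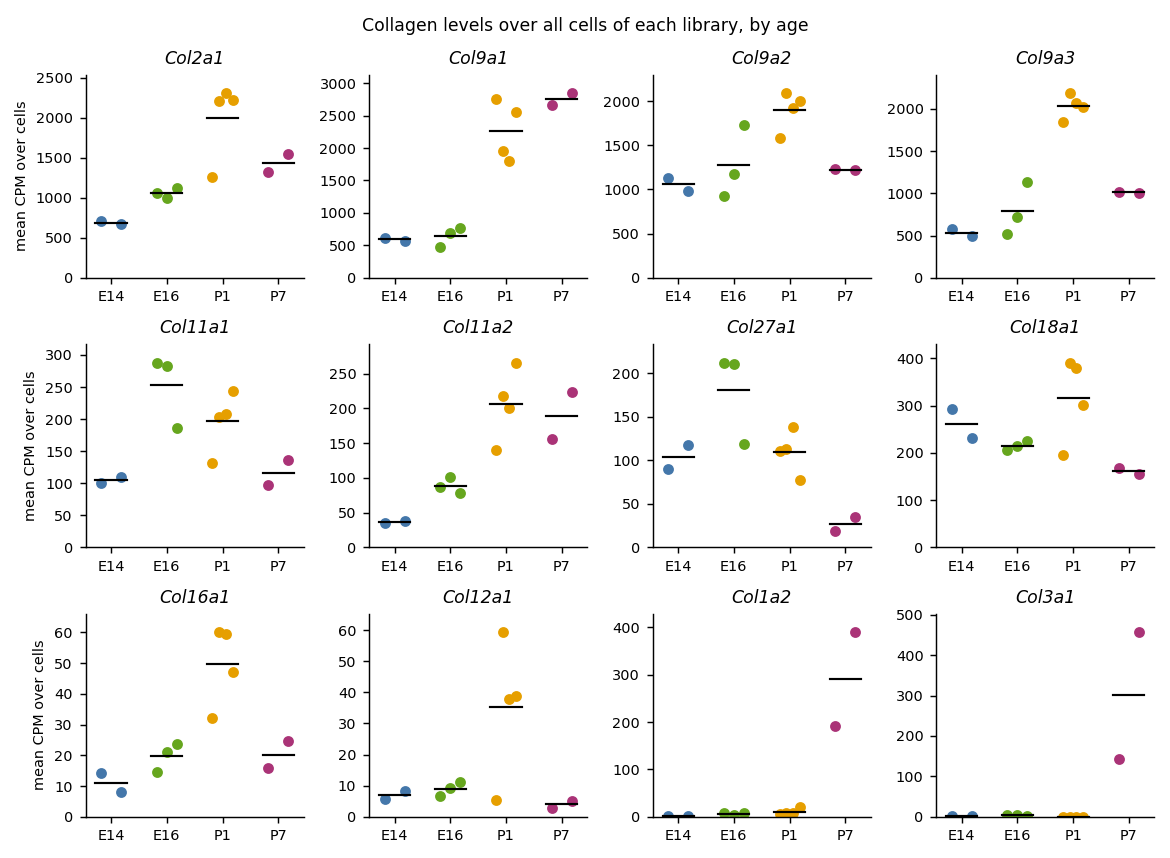
Level of 12 collagens over all cells at E14, E16, P1 and P7 (y axes, CPM), 1 point a library and a bar for the mean of each age. Col9a1 and Col9a3 step up at P1, Col27a1 falls at P7, and Col1a2 and Col3a1 are near 0 until P7, where the 2 libraries differ.

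The ratio between chains of the same heterotrimer was computed in each library. Col9a1 to Col9a2 was 0.561 ± 0.0186 at E14 and 0.514 ± 0.0732 at E16, then 1.22 ± 0.386 at P1 and 2.25 ± 0.123 at P7, so that Col9a1 was below Col9a2 in every embryonic library and above it in both P7 libraries. At P1 the libraries ran from 0.932 to 1.75, with replicate 1 the highest. Col9a3 to Col9a2 went from 0.504 ± 0.00808 and 0.609 ± 0.0450 to 1.07 ± 0.0674 and 0.827 ± 0.00127. Col11a1 to Col11a2 moved the other way, from 2.91 ± 0.0158 and 2.83 ± 0.486 to 0.955 ± 0.0544 and 0.615 ± 0.0116. No embryonic library overlapped a postnatal one in any of these 3 ratios. Col4a1 to Col4a2 was 1.65 ± 0.385, 1.93 ± 0.179, 1.51 ± 0.207 and 1.59 ± 0.0216. Its range overlapped between the ages except for E16 (1.76 to 2.12) and P7 (1.58 to 1.61). These ratios are descriptions with no test; equal transcripts of each chain need not give a ratio of 1 in 3′ counts.

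**Figure D2:**
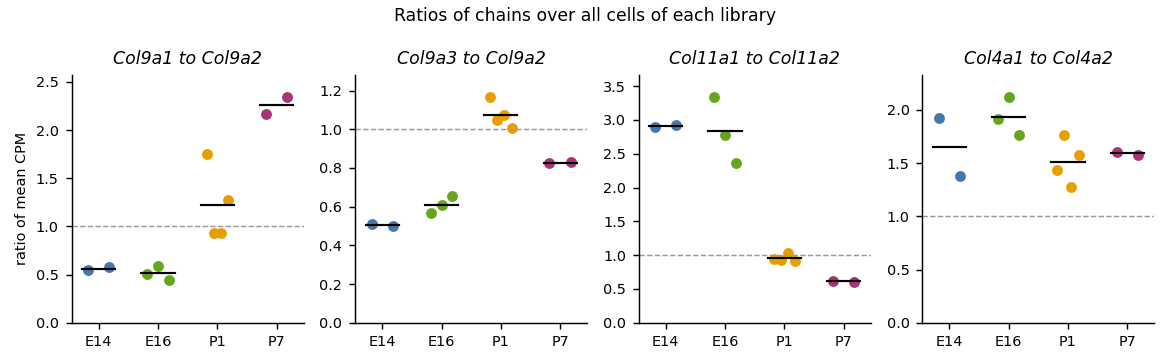
Ratio of mean CPM between chains of types IX, XI and IV over all cells, 1 point a library, with bars at the mean of each age and a dashed line at 1. At P1 the libraries lie on both sides of 1 for Col9a1 to Col9a2 and for Col11a1 to Col11a2, at P7 both lie above 1 for the former and below 1 for the latter, and Col4a1 to Col4a2 lies above 1 in all 11 libraries.

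Across regions, the chains of types II, IX, XI and XXVII were higher in medial KO cells at E14 (all but Col9a1, which was not called) and E16, and in lateral KO cells at P1 (all but Col27a1, which was not called). They were lower in prosensory cells at both ages, in hair cells (all but Col27a1 at P7, which was not called) and in P1 Deiters' cells. P1 inner pillar and inner phalangeal cells were lower for the same chains except Col11a2 and Col9a2, which were not called in the former and the latter class, in that order. In P1 inner pillar cells, the calls for Col11a1 and Col9a2 were each lost in 5 of 12 alternatives, P1 replicate 2 or 3 left out being among them for both (Col11a1 -0.44 and -0.36, Col9a2 -0.22 and -0.20). The P7 supporting cells were mixed and are described below. Each gated region was compared with all other cells of the same libraries, which include ungated cells, so that the fitted difference rests on pairs within a library; at P7 the other cells include the gated mesenchymal cells and their collagen. The lists of competing regions differed between ages, and lateral KO cells could be gated only from P1 on. Medial KO cells were higher for 10 of 13 collagens at E14 (7.02% higher, 9.40% lower) and for 9 of 14 at E16 (5.58% higher, 9.96% lower), and lower for none. At E14 Col11a2 had 80.6 ± 12 CPM in medial KO cells and 26.7 ± 1.08 in other cells, and Col11a1 204 ± 22.2 against 84.0 ± 5.77, log2 differences of 1.30 ± 0.13 and 1.18 ± 0.09 (adjusted p = 4.64e-22 and 8.85e-36). At E16 the largest were Col27a1 (0.89), Col11a2 (0.83) and Col9a3 (0.82).

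At P1, lateral KO cells, named for their gate on Tectb, Igfbp3 and Tecta, were higher for 10 of 14 collagens and lower for 2 (12.2% higher, 29.3% lower). Col9a1 had 4501, 3644, 3442 and 4982 CPM in the 4 libraries, against 1773 ± 402 in other cells, and Col2a1 had 2086, 3941, 4074 and 4131, against 1596 ± 416. Every library was higher for both genes, and P1 replicate 1 was the low one for Col2a1 only. The log2 differences were 1.23 ± 0.05 and 1.14 ± 0.03 (adjusted p = 2.23e-08 and 4.58e-09). Col9a2 (0.66), Col26a1 (0.60), Col18a1 (0.58), Col9a3 (0.51) and Col11a1 (0.49) followed, while Col4a1 (-1.68) and Col4a2 (-0.97) were lower. Medial KO cells at P1 were split, with 4 of 15 higher and 5 lower (13.3% higher, 16.3% lower), with differences from -0.55 for Col4a1 to 0.51 for Col11a2, and the count of 9 ran from 5 without P1 replicate 2 or 3 to 11 without P1 replicate 1. The lateral KO gate was weak at P7. Of its 389 and 249 cells, 215 and 123 lay at or near a gate limit, and 33.2% and 41.0% fell in clusters of that name. At P1 the latter share was 95.3 to 98.6%. The check marker Otog was at 64.2 against 63.5 CPM in P7 replicate 4, and Hey2 was lower than in other cells in replicate 5. The P7 cells of this gate were lower for 11 of 16 collagens and higher for 2 (6.91% higher, 10.9% lower), with Col9a1 at 2213 and 2038 CPM against 2894 ± 146 in other cells (log2 -0.44 ± 0.07, adjusted p = 9.25e-09). The 2 higher were Col13a1 and Col18a1 (0.37), the latter not with clusters in place of the gate, where its difference was -0.22 (adjusted p = 0.349).

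Embryonic hair cells were lower for 8 of 11 collagens at E14 (4.51% higher, 6.06% lower) and for 11 of 12 at E16 (19.6% higher, 20.2% lower). Hair cells of P1 were lower for 13 of 15 (40.5% higher, 29.0% lower) and those of P7 for 14 of 16 (35.2% higher, 29.2% lower). They were higher for 1 collagen at E16 and for 1 at P1. The difference was largest for Col9a1 at P1, where hair cells had 188, 55.7, 42.6 and 109.6 CPM and other cells had 2437 ± 475 (log2 -4.66 ± 0.18, adjusted p = 1.54e-08). At E14 the gap was smaller, 199 ± 40.4 against 596 ± 38.6 CPM (log2 -1.55 ± 0.19). Within hair cells, Col9a1 (-1.52), Col18a1 (-1.38) and Col9a2 (-0.87) fell from E14 to E16 (3 of 10 called; 8.43% higher, 7.19% lower), all 3 calls being lost without E14 replicate 1. The E14 gate held 26 and 38 hair cells in the 2 libraries. No collagen of 10 was called in hair cells from E16 to P1 with limma (2 at an unadjusted p under 0.05; 9.52% higher, 5.83% lower), and from P1 to P7 Col11a2 rose (1.23 ± 0.34, adjusted p = 0.016) and Col9a2 fell (-0.70 ± 0.22, adjusted p = 0.0326; 7.50% higher, 10.7% lower). The latter count of 2 was 1 without P1 replicate 2 or P7 replicate 4 and 0 without P1 replicate 3 or P7 replicate 5. These changes within hair cells are at the level of the low reference and are not read as expression. The bone markers there summed to 0.526 to 3.83 CPM at P1 and 8.59 and 12.7 at P7, with Sp7 at 0 in all 6 libraries, and their part was not tested.

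Prosensory cells, the progenitors of hair and supporting cells, were lower for 8 of 11 collagens at E14 and higher for 1 (10.0% higher, 11.3% lower), and lower for 9 of 14 at E16 (7.09% higher, 6.46% lower). At E16, Col11a1 had 78.0 ± 6.17 CPM against 276 ± 64.1 and Col27a1 55.7 ± 16.7 against 197 ± 59.0, log2 differences of -1.68 ± 0.12 and -1.64 ± 0.14 (adjusted p = 2.73e-06 and 8.50e-06). Among the P1 supporting cells, inner phalangeal cells, which flank the inner hair cell, were lower for 7 of 14 collagens (9.28% higher, 9.26% lower). Inner pillar cells were lower for 9 of 13 (10.2% higher, 11.8% lower) and Deiters' cells, which hold the outer hair cells, for 11 of 13 (19.7% higher, 16.4% lower). Col9a1 at P1 was 1069 ± 277, 1354 ± 306 and 451 ± 188 CPM in these 3 classes.

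Interdental cells and lateral floor cells lie at opposite edges of the floor. Interdental cells were higher for 3, 4 and 4 and lower for 2, 3 and 6 of the 12, 15 and 14 collagens tested at E14, E16 and P1 (5.84% higher, 6.94% lower, then 4.81% higher, 6.98% lower, then 10.5% higher, 19.2% lower). Col11a1 in interdental cells was 187 and 158 CPM at E14, 674, 559 and 385 at E16 and 214, 420.4, 572 and 469 at P1, higher than in other cells at each age (log2 0.76 ± 0.12, 1.21 ± 0.09 and 1.12 ± 0.11). The P1 value of replicate 1 was the lowest of that age and overlapped the level of other cells. Col9a1 was lower there at each age (-0.91, -1.55 and -1.63), which left the ratio of Col9a1 to Col9a2 at 0.404 ± 0.144 in P1 interdental cells against 1.57 ± 0.384 in P1 lateral KO cells.

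Lateral floor cells, on the side of the future outer sulcus, were higher for 3, 1 and 3 and lower for 4, 6 and 8 of 12, 15 and 15 collagens (14.0% higher, 14.9% lower, then 4.70% higher, 5.78% lower, then 7.17% higher, 7.91% lower). Col11a1 was 27.3 and 20.4 CPM at E14, 94.2, 77.4 and 35.5 at E16 and 29.9, 77.1, 63.3 and 118 at P1, and lower than in other cells (log2 -1.91, -1.86 and -1.45). Col11a2 was lower at each age too (-1.15, -1.48 and -1.15). Col9a1 was higher in lateral floor cells at E14, 951 and 963 CPM against 537 ± 33.4 (log2 0.82 ± 0.06, adjusted p = 2.22e-46), and lower at P1 (-0.52 ± 0.09, adjusted p = 8.97e-04).

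**Figure D3:**
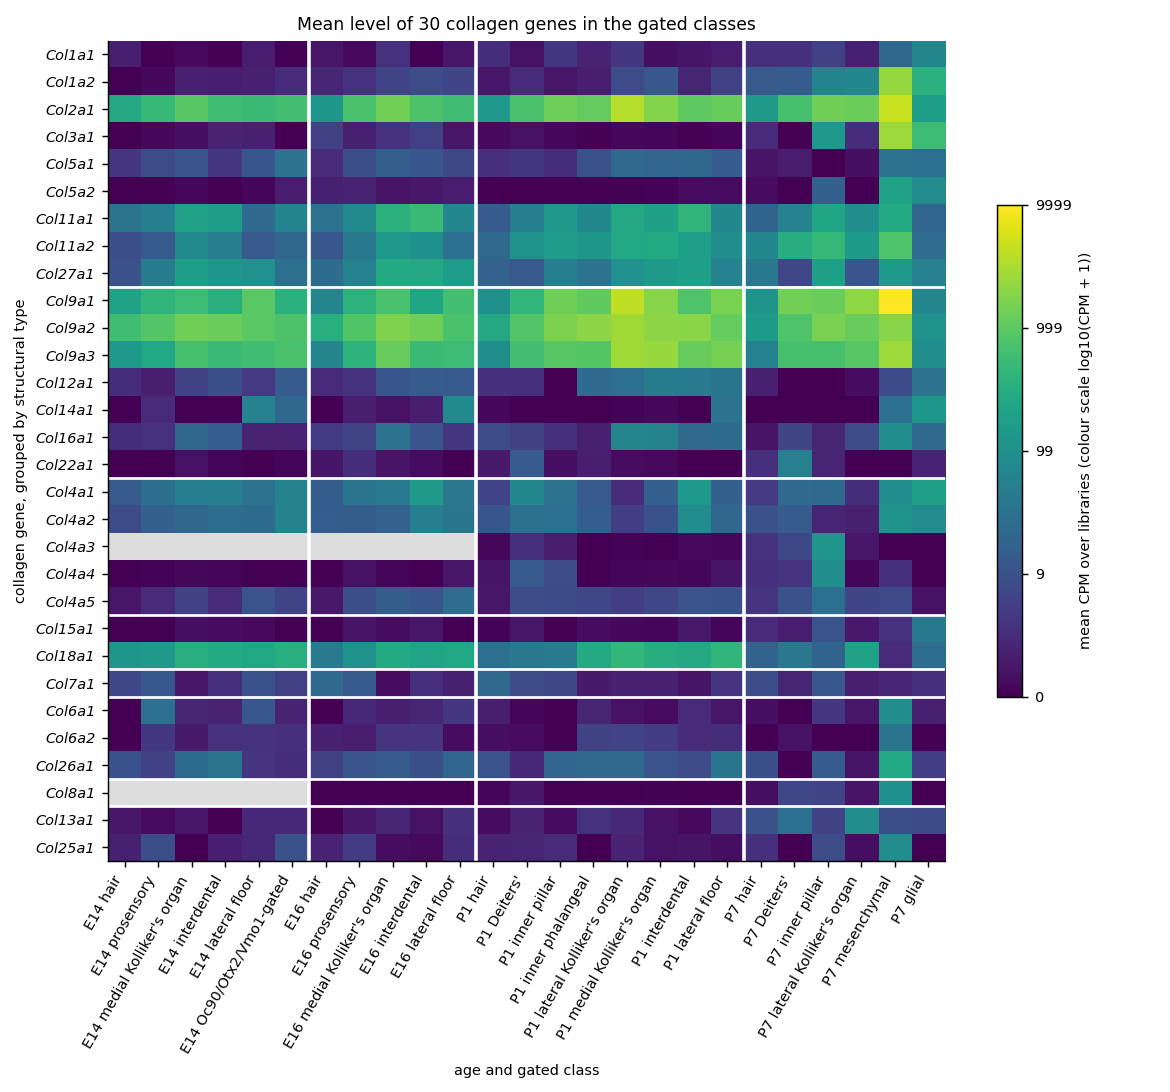
Mean level of 30 collagens (rows, log10(CPM + 1) as colour) in 25 gated classes at the 4 ages (columns), grey where a gene was not listed at that age. The type II and IX chains are among the brightest in every column but that of P7 glial cells, and dimmer in hair cells than in the other epithelial columns of the same age, and Col1a2 and Col3a1 are bright in the P7 mesenchymal and glial columns.

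The basement membrane chains Col4a1 and Col4a2 were higher in interdental cells than in other cells from E16 on. Col4a1 was 58.5 and 44.6 CPM in interdental cells at E14, 171, 144 and 102 at E16 and 107, 149, 119 and 168 at P1. Other cells had 37.9 ± 11.6 CPM at E16 and 15.2 ± 4.29 at P1, and no library overlapped. The log2 differences were 1.64 ± 0.15 at E16 and 2.52 ± 0.10 at P1 (adjusted p = 2.33e-06 and 5.00e-10), with 0.94 ± 0.18 and 2.20 ± 0.12 for Col4a2 (adjusted p = 0.003 and 7.44e-09). At P1, Deiters' cells were higher for Col4a1 as well, at 59.6, 54.2, 61.3 and 102 CPM against 21.4 ± 4.87 (log2 1.31 ± 0.15, adjusted p = 2.08e-05), and for Col4a2 by 0.58 ± 0.17 (adjusted p = 0.017), a call lost without P1 replicate 3 or 4. Over the 25 classes the head-to-head pair had Pearson's r = 0.867 in log2(mean CPM + 10), a description across classes that share libraries. Markers of other cell types were raised in the same interdental cells. The 10 mesenchymal markers summed to 115 to 140.5 CPM at E16 and 49.97 to 101 at P1, against 62.2 to 74.9 and 23.4 to 44.8 over all cells, with 4 to 7 and 3 to 5 of the 10 above 0 and Twist1, Twist2 and Prrx1 at 0 in all 4 P1 libraries. The 7 glial markers summed to 41.3 to 57.2 CPM at E16 and 69.9 to 109 at P1, against 24.8 to 32.9 and 22.97 to 28.5 over all cells, with 4 to 6 of the 7 above 0. The 6 cartilage markers summed to 8.45 to 211 CPM at P1, against 0.852 to 22.5, with 2 or 3 above 0. The part of these cell types in the type IV levels was not tested. Col4a1 and Col4a2 each overlap an annotated antisense transcript as well as each other.

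Col18a1 was lower in most classes of the sensory domain. On the log2 scale the difference was -0.95 and -0.99 in prosensory cells at E14 and E16, and -2.77, -2.70 and -3.17 in Deiters', inner pillar and hair cells at P1, all past the threshold, as were -1.93, -3.01 and -2.76 in the same classes at P7. In Deiters' cells it was 30.4, 51.8, 32.6 and 41.0 CPM at P1 and 23.1 and 55.4 at P7, against 330.4 ± 93.6 and 167 ± 9.92 in other cells. Its highest level was 438 ± 149 CPM in P1 lateral KO cells. In the P1 inner phalangeal cells, which belong to the sensory domain as well, it was not called (277 against 317 CPM, log2 -0.20 ± 0.12, adjusted p = 0.27).

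Several collagens of low level differed between regions. Col14a1, a FACIT chain of loose connective tissue, was higher in lateral floor cells at E14, E16 and P1. It was at 57.7 and 59.4 CPM at E14, 109, 75.3 and 59.2 at E16 and 62.7, 31.5, 20.2 and 16.8 at P1, against 5.09 ± 1.83, 3.42 ± 0.920 and 0.242 ± 0.118 in other cells. The log2 differences were 2.19 ± 0.15, 2.73 ± 0.23 and 1.95 ± 0.23 (adjusted p = 9.35e-46, 7.77e-07 and 4.52e-05). After thinning to 1500 UMIs, 21 of 329 and 26 of 345 lateral floor cells of the E14 libraries held a Col14a1 UMI (27.4% and 30.4% unthinned, median depths 4983 and 5387 UMIs), against 0 of 399 and 0 of 487 medial KO cells, which allows a share of cells with a UMI at that depth of up to 0.752% and 0.616% (0% unthinned, median depths 3023 and 3175 UMIs). Intervals and limits here cover counting error only, and a limit on cells with a UMI is no limit on cells that express the gene.

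Col7a1, the chain of anchoring fibrils, was the 1 collagen higher in hair cells than in other cells. It was at 29.6, 28 and 14.8 CPM in the E16 libraries and 9.97, 28.7, 31.5 and 23.7 in the P1 libraries, against 2.90 ± 0.981 and 1.73 ± 0.624 in other cells, and was higher in hair cells of all 7 libraries (log2 1.37 ± 0.22 and 1.46 ± 0.18, adjusted p = 4.90e-05 and 4.35e-05). Col6a1, a chain of beaded microfibrils, was higher in E14 prosensory cells, at 27.8 and 27.3 CPM against 5.36 ± 0.577 (log2 1.29 ± 0.18, adjusted p = 7.47e-11), and had 0, 4.09 and 1.14 CPM in E16 prosensory cells. Col13a1, a transmembrane chain, was at 1.71, 0.876, 1.34 and 3.20 CPM in P1 lateral KO cells and 98.6 and 88.4 in P7 lateral KO cells, where it was higher than in other cells (log2 1.17 ± 0.15, adjusted p = 2.53e-13). Over all cells Col13a1 was at 0.685 to 1.78 CPM in the P1 libraries and 38.4 and 55.6 in the P7 libraries. It held a UMI in 13.7% and 12.1% of P7 cells outside the gated mesenchymal and glial ones, so it was not confined to this class. The P7 gate of the class was weak, and Col13a1 fell under the filter in the age fit over all cells.

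The E14 cells gated on Oc90, Otx2 and Vmo1, genes known from the roof of the duct, had 7 of 13 collagens higher and 5 lower (13.2% higher, 14.0% lower). Col4a2 (1.23), Col5a1 (1.05) and Col4a1 (0.69) had the largest differences among the higher chains, at 59.7 ± 10.6, 32.4 ± 2.47 and 61.6 ± 1.80 CPM. The 10 mesenchymal markers summed to 281 and 250.3 CPM in this class and to 35.5 and 37.4 over all E14 cells. In the class 4 and 3 of the 10 were above 0, and Pou3f4, Twist1, Twist2, Prrx1 and Coch were at 0 in both libraries. The part of mesenchymal RNA in these collagen values was not tested. Col27a1 (-1.60), Col9a1 (-0.76) and Col11a1 (-0.75) were the lowest. Col26a1, a chain of the beaded-filament group, was higher in E14 interdental cells (0.98) and medial KO cells (0.70) and in P1 lateral floor cells (0.95), and lower in P1 interdental cells (-0.47).

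Deiters' and inner pillar cells, neighbouring supporting cells of the organ of Corti, were compared with each other within libraries. Most chains that differed were higher in pillar cells: at P1, 7 of 12 collagens were lower in Deiters' cells and 1 was higher (4.23% higher, 3.45% lower), and at P7 7 of 16 were lower and 1 was higher (3.82% higher, 3.62% lower). Col9a1 at P1 was 643, 392, 216 and 554 CPM in Deiters' cells and 1674, 1139.6, 1049 and 1554 in pillar cells, without overlap (log2 -1.65 ± 0.12, adjusted p = 5.85e-11). At P7, Deiters' cells had 1583 and 1193 CPM and pillar cells 1154 and 1292, with overlapping ranges and no call (log2 0.17 ± 0.18, adjusted p = 0.715). Col27a1 kept its direction: 21.2, 6.67, 13.9 and 6.78 against 90.3, 50.8, 52.4 and 18.2 CPM at P1 and 9.82 and 2.58 against 168 and 215 at P7, log2 differences of -1.42 ± 0.29 and -3.66 ± 0.43 (adjusted p = 0.00111 and 2.50e-15). Col11a1 (-1.14 and -1.83), Col9a2 (-0.89 and -0.98) and Col2a1 (-0.88 and -0.94) were lower in Deiters' cells at both ages, and Col4a1 was higher at P1 (1.00 ± 0.24, adjusted p = 0.00778), a call lost without P1 replicate 3 and with clusters in place of the gate.

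The P7 pillar cells were set apart by Col4a3 and Col4a4, the head-to-head pair on chromosome 1. Col4a3 was 136 and 102 CPM in the pillar cells of the P7 libraries and 12.8 and 0 in Deiters' cells, and Col4a4 89.8 and 101 in pillar cells and 4.08 and 2.15 in Deiters' cells. At P1, Col4a3 was 4.19, 0, 0 and 0 CPM and Col4a4 16.7, 0, 6.34 and 6.11 in pillar cells, too low to be tested. The log2 differences of Deiters' against pillar cells were -3.08 ± 0.47 and -3.01 ± 0.50 (adjusted p = 4.23e-09 and 1.25e-07), and pillar cells were higher than all other P7 cells by 3.53 ± 0.40 and 3.18 ± 0.41 (adjusted p = 1.32e-16 and 5.34e-13). Over all P7 cells the pair was at 2.96 and 3.17 CPM. Both passed the filter on low values only through the pillar arm, so the calls are not independent of the high pillar level. Against all other P7 cells, 13 of 18 collagens were called in pillar cells, 6 of them higher (10.7% higher, 10.8% lower). The third chain of the same network, Col4a5 on the X chromosome, was 37.0 and 19.3 CPM (1.23 ± 0.46, adjusted p = 0.0367), a call lost with a looser gate, with a pseudocount of 1 CPM and with no filter on low values. Col4a5 was at 6.27 CPM over all P7 cells and also passed the filter only through the pillar arm.

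Pillar cells gated at P7 numbered 25 and 31. Col4a3 UMIs were found in 15 and 16 of them, Col4a4 UMIs in 12 and 17, and both in 6 and 12, while Deiters' cells held Col4a3 in 4.48% and 0% of 67 and 65 cells. Pillar cells were deep, with median UMIs of 11174 and 9733 against 7140 and 6798 in Deiters' cells. Thinned to 1500 UMIs a cell, Col4a3 was found in 7 of 25 (28%, exact 95% interval 12.1 to 49.4%) and 3 of 31 (9.68%, 2.04 to 25.8%) pillar cells and in 2 of 67 and 0 of 65 Deiters' cells, the last allowing a share of cells with a UMI of up to 4.62%. Doublets were not called, and the part of cell depth in the pillar values was not tested. Also higher in P7 pillar cells than in other cells were Col27a1 (2.59), Col11a2 (1.31, 474 ± 126 against 185 ± 49.3 CPM) and Col11a1 (0.96). P7 pillar replicate 5 had 264 CPM of Col3a1 and a bone marker sum of 349 CPM, against 3.23 and 14.8 in replicate 4.

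At P7, Deiters' cells were higher for Col22a1, a FACIT chain known from tissue junctions. It was 96.7 and 13 CPM in the P7 libraries against 0.600 ± 0.175 in other cells, and 14.0, 16.9, 11.3 and 10.4 in the P1 libraries. The difference at P7 was 2.23 ± 0.40 on the log2 scale against other cells (adjusted p = 7.04e-05; 13 of 16 collagens called, 11 lower; 10.1% higher, 11.9% lower) and 2.11 ± 0.59 against pillar cells (adjusted p = 0.00758; lost with a pseudocount of 1 CPM and with pooled CPM). The 2 libraries were far apart, and a single cell of replicate 4 held 11 of that library's 21 Col22a1 UMIs. Col11a2 was the other collagen higher in P7 Deiters' cells, at 289.8 and 323 CPM against 185 ± 48.2 (log2 0.72 ± 0.17, adjusted p = 0.00159), having been lower there at P1 (-0.90).

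**Figure D4:**
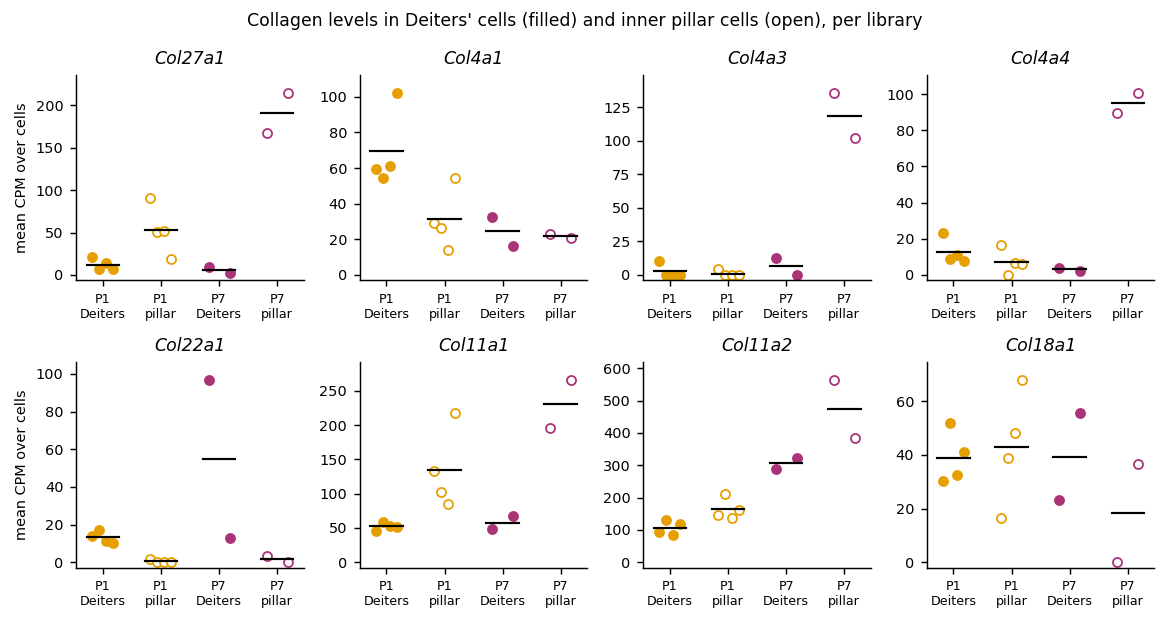
Level of 8 collagens in Deiters' and inner pillar cells at P1 (4 libraries) and P7 (2 libraries), 1 point a library with a bar for the mean (y axes, CPM). Col4a3 and Col4a4 are near 0 except in P7 pillar cells, and Col27a1 is higher in pillar cells at both ages.

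Cells gated on mesenchymal markers at P7 (32 and 71 cells in the 2 libraries) were the richest in collagen. They were compared with all cells but the gated mesenchymal and glial ones, called epithelial cells here. Clusters named by the mesenchymal list held 86 and 173 cells. Ungated cells of those clusters thus lay in the epithelial arm, and its levels are not those of epithelial cells alone. Of the collagens, 20 of 23 were higher and 2 lower (12.5% higher, 14.7% lower). The filter took the mean over both arms, so a chain low elsewhere was tested only through its mesenchymal level. Col6a2, Col8a1 and Col25a1 were tested in no other comparison. Of the types, 8 of 9 fibrillar, 5 of 5 FACIT, 2 of 2 type IV and 3 of 3 beaded-filament and related chains were higher. Col3a1 was 2262 and 2987 CPM against 99.4 and 322 in epithelial cells, and Col1a2 1994 and 2658 against 155 and 284; log2 differences were 3.78 ± 0.18 and 3.39 ± 0.18 (adjusted p = 1.05e-95 and 4.01e-78). Col26a1 had a difference of 3.61, between these chains. Col5a2 (3.07), which co-assembles with type I and III fibrils, Col25a1 (2.79), Col6a1 (2.63), Col4a2 (2.57) and Col8a1 (2.36) followed. The 2 lower chains were Col18a1, at 0 and 4.26 against 174 and 171 CPM (log2 -3.93 ± 0.40, adjusted p = 1.97e-21), and Col13a1 (-1.85 ± 0.45, adjusted p = 3.10e-04).

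Cartilage-type chains were higher in these cells too, and Col9a1, Col2a1 and Col11a2 had their highest mean of the 25 classes there. Col9a1 was 9287 and 10660.0 CPM against 2581 and 2628 and Col2a1 4603 and 4772 against 1274 and 1465 (log2 1.93 ± 0.11 and 1.77 ± 0.13, adjusted p = 4.62e-62 and 3.89e-39), and Col9a1 to Col9a2 was 5.45 ± 0.791, the highest ratio of the 25 classes. Markers of other cell types were present: all 5 bone markers were detected in both libraries, summing to 14846 and 15203 CPM against 245 and 762 in epithelial cells, and Ibsp alone, a bone matrix protein, was 13554 and 14750 CPM, with a UMI in 29 of 32 and 60 of 71 cells. The 6 cartilage markers summed to 41.2 and 67.6 CPM, with Acan in 3 of 32 and 11 of 71 cells, while Matn3, Comp, Snorc and Hapln1 were at 0 or not listed. Of the 10 mesenchymal markers, Coch had the highest level (2409 and 2358 CPM), and Twist1, Postn and Ogn were at 0 in replicate 4. The class is named here for its gate only, and the part of bone-type cells in its collagen levels was not tested.

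Type I chains were unbalanced in the counts. Col1a1 was 4.10 and 38.2 CPM in the P7 mesenchymal cells, or 0.00821 ± 0.00870 of Col1a2, and 86.3 and 49.7 in glial cells, or 0.187 ± 0.0336 of Col1a2. Type I collagen is normally built from more Col1a1 than Col1a2 chains. After thinning to 1500 UMIs, Col1a1 was found in 0 of 32 (which allows a share of cells with a UMI of up to 9.38%) and 2 of 71 mesenchymal cells, and Col1a2 in 30 of 32 and 68 of 71. Of all Col1a2 UMIs at P7, 19.4% and 30.2% lay in the gated mesenchymal cells, and of Col3a1 UMIs 33.9% and 32.7%. Outside the gated mesenchymal and glial cells, Col1a2 was found in 20.4% and 26.6% of cells and Col3a1 in 4.6% and 11.5%, and 89.9% and 64.3% of those Col3a1 UMIs lay in 50 cells of each library. P7 hair cells held Col1a2 at 13.2 and 11.1 CPM, with a UMI in 5.22% and 4.69% of 115 and 128 cells.

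Glial cells at P7 (26 and 86 cells, with glial markers summing to 45904 to 49838 CPM) had more type IV and less type II, IX and XI transcript than epithelial cells. Of 20 collagens, 7 were higher than in epithelial cells and 8 lower (9.21% higher, 11.8% lower). Col4a1 was 159 and 202 CPM against 9.86 and 25.2 and Col14a1 61.2 and 189 against 1.59 and 4.13, log2 differences of 2.84 ± 0.38 and 3.22 ± 0.49 (adjusted p = 6.74e-06 and 3.50e-05). Col1a1 (2.54), Col4a2 (2.23), Col12a1 (1.71), Col3a1 (1.55) and Col5a2 (1.51) were the other higher chains, the last with overlapping groups. Col14a1, Col1a1 and Col12a1 were at 9.31, 5.68 and 3.94 CPM over all P7 cells. They passed the filter on low values only through the glial arm, so their calls are not independent of the high glial level. Col9a1 was lower, at 40.2 and 93.0 CPM (log2 -5.18 ± 0.23, adjusted p = 1.02e-13), near its level in P7 hair cells (123 and 112), and Col9a2 (-3.42), Col9a3 (-3.33), Col2a1 (-3.04), Col11a2 (-2.46), Col18a1 (-2.32), Col11a1 (-2.10) and Col13a1 (-1.93) were lower too. Col15a1, the multiplexin of vascular and nerve basement membranes, was 2.86 and 78.0 CPM and was not called (1.41 ± 0.62, adjusted p = 0.111).

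**Figure D5:**
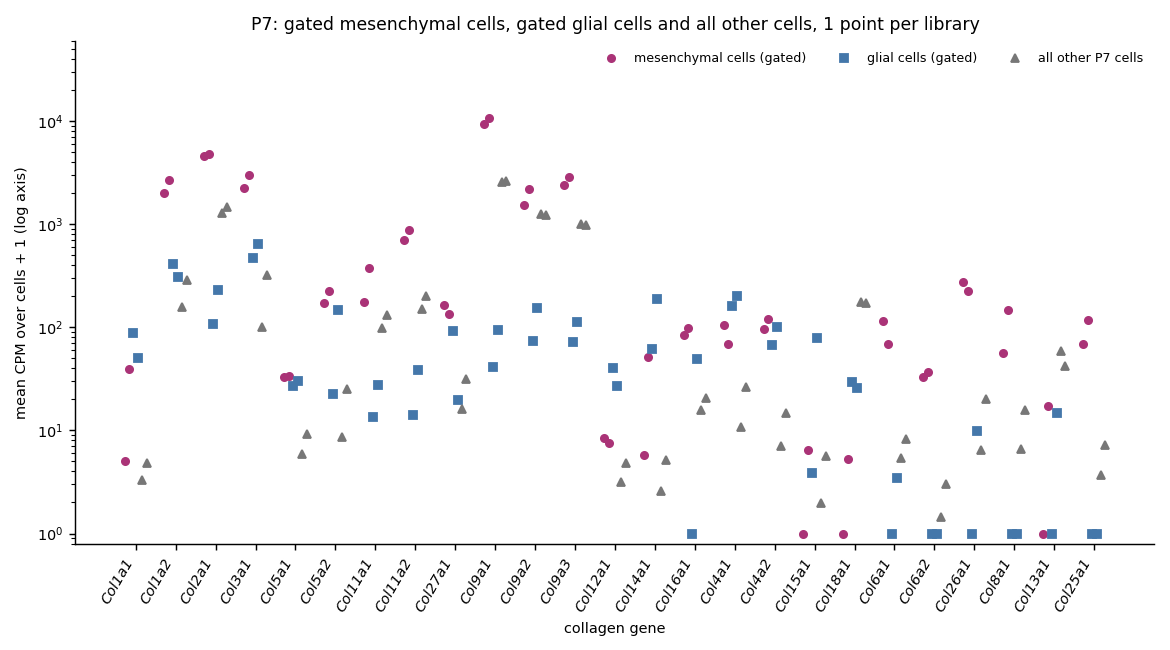
Level of collagens at P7 in gated mesenchymal cells, gated glial cells and all other cells (called epithelial), 1 point for each of the 2 libraries (log axis, CPM + 1). Mesenchymal cells are highest for Col1a2, Col3a1 and Col9a1, glial cells for Col4a1, Col14a1 and Col1a1, and epithelial cells for Col18a1.

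Col9a1 and Col9a3 also rose from E16 to P1 within interdental, medial KO and lateral floor cells. Between E16 and P1, interdental cells had 3 of 15 collagens called, all higher (3.81% higher, 4.26% lower). Medial KO cells had 3 higher and 3 lower of 14 (3.93% higher, 3.63% lower), and lateral floor cells 5 higher and 2 lower of 16 (2.81% higher, 2.84% lower). Col9a1 rose by 1.71 ± 0.26, 1.35 ± 0.25 and 1.33 ± 0.21 in these 3 regions (adjusted p = 5.11e-04, 0.00513 and 8.90e-04), and Col9a3 by 1.12, 1.11 and 1.48. The cartilage markers summed to 0 to 9.52 CPM at E16 and 8.45 to 211 at P1 in interdental cells and to 0 to 5.41 and 2.20 to 56.03 in lateral floor cells, where Ucma was the only one above 0 at P1. In medial KO cells they stayed at 0 to 0.494 and 0 to 1.58 CPM. Their part in the rise was not tested. In medial KO cells the E16 libraries had 523, 789.6 and 847 CPM of Col9a1 and the P1 libraries 2876, 1567, 1544 and 1558, with replicate 1 of P1 the highest. Lateral KO cells were gated apart at P1 but not at E16, so the medial KO gate need not hold the same cells at both ages. In sensory supporting cells (prosensory cells at E14 and E16, Deiters' and inner pillar cells after birth), 2 of 11 collagens rose and 2 fell from E16 to P1 (3.43% higher, 3.24% lower). Col11a2 (1.37 ± 0.22, adjusted p = 7.37e-04) and Col9a3 (0.91) rose and Col18a1 (-1.34 ± 0.28, adjusted p = 0.00569) and Col27a1 fell. The E16 and P1 cells of this class were gated on different marker lists. Inner phalangeal cells, where Col18a1 was not called against other cells, were left out at P1. A change in the cells gated and a change within them cannot be told apart at this step. These age fits had no library pairs, and the number of calls followed single libraries. In medial KO cells it was 0 without E16 replicate 1, 1 without E16 replicate 2, 2 without P1 replicate 2 and 3 without P1 replicate 3. In lateral floor cells it was 3 without E16 replicate 1 or 2 and 4 without P1 replicate 2, 3 or 4, in interdental cells 6 without P1 replicate 1, and in sensory supporting cells 2 without E16 replicate 1 or 2 and 7 without E16 replicate 3. With clusters in place of the gate, Col9a1 and Col9a3 were not called in lateral floor cells (0.18 and 0.70), and neither was called in medial KO cells without E16 replicate 1.

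Col27a1 fell from E16 to P1 in medial KO cells (-0.91 ± 0.23), lateral floor cells (-1.25 ± 0.34) and sensory supporting cells (-1.11 ± 0.31), with adjusted p of 0.0312, 0.0403 and 0.036, and each call was lost in 5 to 9 of its 16 alternatives. From P1 to P7, sensory supporting cells had 3 of 11 collagens higher and 1 lower (5.72% higher, 7.65% lower). Col11a2 (1.51 ± 0.25, adjusted p = 4.36e-04), Col27a1 (1.26) and Col9a1 (1.15) were higher and Col4a1 was lower (-1.07). The class holds 715 Deiters' and 166 pillar cells at P1 and 132 and 56 at P7, so its makeup differed between the ages. For Col27a1, pillar cells had 18.2 to 90.3 CPM at P1 and 168 and 215 at P7, whereas Deiters' cells had 6.67 to 21.2 at P1 and 9.82 and 2.58 at P7, and the part of makeup in these age differences was not tested. Bone markers summed to 0 to 2.42 CPM in Deiters' cells at P1 and 6.001 and 17.3 at P7, and to 0 to 5.15 and then 14.8 and 349 in pillar cells, with Sp7 and Runx2 at 0 in both classes at P7. Mesenchymal markers summed to 22.6 to 113 CPM in Deiters' cells at P1 and 112 and 118 at P7, and in pillar cells to 25.96 to 73.3 and then 46.5 and 236.5. Their part was not tested. Without cells of over 3000 genes, a setting under which P7 pillar cells alone could not be fitted, the Col27a1 difference was -0.08, and all but Col11a2 were lost without either P7 library. The count of 4 was 1 without P7 replicate 4 and 2 without P7 replicate 5 or P1 replicate 3. From E14 to E16 in interdental cells, Col11a1 rose by 1.56 ± 0.34 and Col4a1 by 1.26 ± 0.29, and Col26a1 fell (-1.24 ± 0.32), 3 of 15 called (2.29% higher, 2.18% lower; adjusted p = 0.0144, 0.0174 and 0.0324), calls that were lost without either E14 library and without E16 replicate 1 or 2; without E16 replicate 3 the count was 5. The 10 mesenchymal markers in these cells summed to 30.2 and 37.3 CPM at E14 and to 115 to 140.5 at E16, with 4 of the 10 above 0 in both E14 libraries and 4 to 7 in the E16 libraries. Twist2 was at 0 in all 5 libraries. The endothelial markers in these interdental cells went from 9.18 and 16.5 CPM at E14 to 29.2 to 64.1 at E16. The neuronal markers went from 37.6 and 39.6 to 5.42 to 11.4. The part of these cell types was not tested. No collagen was called from E14 to E16 with limma in medial KO cells (0 of 14, with 6 at an unadjusted p under 0.05; 1.61% higher, 1.70% lower) or lateral floor cells (0 of 16, with 3; 1.03% higher, 0.0680% lower). In sensory supporting cells Col11a2 was the 1 of 11 called (1.13 ± 0.27, adjusted p = 0.0226; 2.28% higher, 1.05% lower), a call lost without either E14 library or without E16 replicate 1. In the prosensory cells of this step the mesenchymal markers went from 5.009 and 5.998 to 20.1 to 30.2 CPM, with 5 of the 10 above 0 in both E14 libraries and 4 to 7 in the E16 libraries, and the erythroid markers from 1.90 and 46.3 to 31.8 to 787. Their part was not tested.

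Among genes that act on collagen chains, more hydroxylases rose than fell from E16 to P1, and more fell than rose from P1 to P7. Of 13 tested prolyl and lysyl hydroxylases and their partners, 7 rose from E16 to P1 (6.49% higher, 6.26% lower) and 6 fell from P1 to P7 (10.0% higher, 10.5% lower), none moving the other way. P4ha2, a subunit of prolyl 4-hydroxylase, rose by 2.34 ± 0.21 (19.1 ± 11.2 to 131 ± 12.9 CPM, adjusted p = 4.67e-05) and then fell (-1.47 ± 0.24, adjusted p = 7.11e-04). The N-propeptidase Adamts2 and the propeptidase enhancer Pcolce2 rose by 1.36 ± 0.15 and 1.36 ± 0.17 from E16 to P1 (adjusted p = 2.24e-04 and 3.24e-04), and the chaperone Fkbp10 by 1.21 ± 0.20 (adjusted p = 0.00169). From P1 to P7, P4ha3 (-2.50), Pcolce2 (-1.32) and Ppib (-1.31) fell and Pcolce (2.31) and the cross-linking enzyme Lox (2.11) rose. From E14 to E16, 2 of these 13 rose (3.53% higher, 4.65% lower), P4ha3 (0.92) and Colgalt2 (0.76), while the collagenase Mmp14 (-0.95) and the collagen chaperone Serpinh1, known as HSP47, fell (-0.75). Over all the assembly and matrix partner lists, the 12 calls from E16 to P1 became 21 without P1 replicate 1, the 15 from P1 to P7 became 6 without P7 replicate 4 and 9 without P7 replicate 5, and the 7 from E14 to E16 became 0 without E14 replicate 1, E14 replicate 2 or E16 replicate 2 and 3 without E16 replicate 1.

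In P1 lateral KO cells, 12 of the 13 hydroxylases and partners were higher and none lower, and in P1 hair cells all 13 were lower. Of all genes, 12.2% were called higher in the former class and 29.0% lower in the latter. In P7 mesenchymal cells, 7 of the 13 hydroxylases and partners were higher and 1 lower, and 4 of 7 tested basement membrane partners were higher (12.5% higher, 14.7% lower). Pcolce was at 589.6 ± 271 against 32.0 ± 5.59 CPM (log2 3.76 ± 0.27, adjusted p = 4.86e-42), Serpinh1 at 4673 ± 78.8 against 726 ± 59.5 (log2 2.67 ± 0.14, adjusted p = 2.40e-76), and the collagen receptor Ddr1 was lower (-2.41). In P7 glial cells, 8 of 10 tested basement membrane partners were higher and none lower (9.21% higher, 11.8% lower), with the largest difference for Hspg2, the perlecan core protein (387 ± 20.8 against 5.10 ± 1.58 CPM, log2 4.72 ± 0.37, adjusted p = 1.48e-09), followed by Lama2 (3.58), Lamc1 (2.86) and Lama4 (2.84). Of the 13 hydroxylases and partners, 1 was higher there and 3 were lower.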

How the data were processed

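Cells from the floor of the cochlear duct were sequenced as 11 single-cell 3′ libraries. Per the submitters' processing notes and the study's methods, the authors aligned reads to mm10 with Cell Ranger 2.1.1 and used Seurat 2.0. The deposited values are the natural log of 1 plus 10000 times the share of a cell's UMIs, as the values show: each cell's back-transformed values summed to 10000, and 100% of them gave whole UMIs within 0.02. The methods state limits on genes and UMIs per cell, but the tables held 0 to 552 cells of over 3000 genes a library, and all deposited cells were used. No column was left without a sample (0).

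From the files, CPM was computed per cell and averaged per library and class. A cell was gated to a class when the mean scaled level of that class's markers was at least 0.3, led the next list by 0.2 and rested on at least 3 markers with a UMI (2 for short lists). The rule for keeping a gate (at least 50% of its check markers higher in every library, and a Leiden cluster of that name, leidenalg 0.10.2) was set after the markers, but not the collagens, were seen. Comparisons used limma 3.58.1 (R 4.3.3) on log2(CPM + 10) with a trended prior and a mean of at least 10 CPM over the libraries compared, adjusted over all genes by Benjamini-Hochberg at 0.05. Age comparisons used all libraries of a class, and region comparisons were paired within libraries. On simulated data, 4-fold changes were recovered in 85.4% of genes for a P1 class (4 libraries, 8687 genes tested), 90.5% for an E16 class (9029 genes), 69.4% for a P7 class (8519 genes) and 100% for P1 against E16 over all cells (8882 genes). For 2-fold changes the shares were 39.4%, 34.9%, 20% and 65.6% in the same order. Of the calls made, 3.57%, 1.85%, 8.57% and 6.41% were false, the last 2 shares being above the level that the adjustment aims at. Each simulated class held about 500000 UMIs a library, with library effects shared by both arms. Some classes here were smaller, such as the 26 P7 glial cells of replicate 4 with a median of 3025 UMIs. The shares may be worse for such classes.

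The members, gene lists and gates were chosen with earlier results of these data known. Collagens with a mean of at least 20 CPM in any age or class are given with values, at most 8 a direction per comparison and those of largest change past the threshold, and at most 4 pathway genes a direction. Alternatives were pseudocounts of 1 and 50 CPM, no filter on low values, pooled CPM, leaving out cells of over 3000 genes, stricter and looser gates, Leiden clusters in place of gates, a replicate block, P7 without gated mesenchymal and glial cells, and leaving out each library. An age fit without an E14 or P7 library keeps a single library at that age, with the spread taken from the other ages. A call lost there does not by itself show that it rested on the library left out. Of the 42 genes, 27 overlap another annotated gene, and 3′ reads shared with such a gene are not resolved here. No doublet caller was run.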

Additional observations from a re-analysis of the deposited data

Results flagged for a closer look

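In 7 of 94 groups of 4 P1 libraries, 1 library lay apart from the other 3 by Dixon's ratio (chance passes its limit in about 1 of 20 groups). Replicate 1 was the library apart for 5 of them: Col2a1 over all cells at 1254 CPM (others 2207 to 2307), Col2a1 in lateral Kölliker's organ cells at 2086 (3941 to 4131), Col26a1 in the same cells at 12.3 (25.4 to 27.3), and in medial Kölliker's organ cells Col9a1 at 2876 (1544 to 1567) and Col9a2 at 1566 (2127 to 2164). Col4a1 in Deiters' cells was 102 CPM in replicate 4 (54.2 to 61.3), and Col4a2 in inner pillar cells was 65.8 CPM in replicate 3 (11.5 to 18.3).

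In 15 cases every library of one age differed from the other cells in one direction and every library of another age in the opposite direction; the difference between ages was not tested. Inner pillar cells had Col27a1 at -1.04 at P1 and 2.59 at P7 on the log2 scale against other cells, and Deiters' cells had Col11a2 at -0.90 and 0.72. In lateral Kölliker's organ cells, 5 collagens were higher than in other cells at P1 and lower at P7: Col9a1 (1.23 and -0.44), Col2a1 (1.14 and -0.21), Col26a1 (0.60 and -1.55), Col16a1 (0.46 and -0.90) and Col11a2 (0.26 and -0.39), with mesenchymal cells among the other cells at P7. The P7 gate of this class was weak, with 33.2% and 41.0% of its cells in clusters of that name. In medial Kölliker's organ cells, Col2a1 was 0.52 and 0.59 in the embryonic ages and -0.17 at P1, Col26a1 0.70 at E14 and -0.33 at P1, and Col4a1 0.46 at E14 and -0.55 at P1. Lateral Kölliker's organ cells were gated apart only from P1 on and were then among the other cells. The part of this change of gates was not tested. Interdental cells had Col26a1 at 0.98 at E14 and -0.47 at P1. Lateral floor cells had Col9a1 at 0.82 at E14 and -0.52 at P1, and Col9a3 at 0.18 at E14 and below 0 at both later ages (-0.53, then -0.45).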

How the results depend on the processing

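Of 3460 recomputed values for the 334 called collagen differences, 3154 kept their direction and their side of the threshold, 304 kept their direction and lost the call, and 2 changed sign: Col27a1 in sensory supporting cells from P1 to P7 without cells of over 3000 genes (-0.0821, adjusted p = 0.916) and Col18a1 in P7 lateral Kölliker's organ cells with Leiden clusters (-0.218, adjusted p = 0.349); the cause was not tested. Of 593 recomputed counts and ratios, 510 stayed close to the reported value (within 1.5 times for counts, within 1 SD for ratios). With no filter on low values, which changes how many genes are tested, the collagens called were 18 for all cells from P1 to P7 (8 with the filter), 29 in P7 lateral Kölliker's organ cells (13), 24 in P7 hair cells (14), 17 in E14 prosensory cells (9), 8 in E14 interdental cells (5), 5 and 1 in hair cells from P1 to P7 and from E16 to P1 (2 and 0), 2 in sensory supporting cells from E16 to P1 (4) and 2 from E14 to E16 (1), 2 in lateral floor cells from E16 to P1 (7) and 1 in interdental cells from E14 to E16 (3), and the pathway genes called over all cells were 26 from P1 to P7 (15) and 3 from E14 to E16 (7). Lateral floor cells from E16 to P1 (7 called) gave 3 with a pseudocount of 1 CPM, 4 with pooled CPM, 4 with a stricter gate, 2 with Leiden clusters and 4 with the replicate block. Sensory supporting cells from P1 to P7 (4) gave 7 with pooled CPM and 7 with Leiden clusters, and from E14 to E16 (1) they gave 0 with a pseudocount of 50 CPM and 2 without cells of over 3000 genes. Hair cells from P1 to P7 (2) gave 1 with a pseudocount of 1 CPM, 1 with a looser gate and 0 with the replicate block, and from E14 to E16 (3) they gave 5 with a pseudocount of 50 CPM. Lateral floor cells from E14 to E16 (0) gave 1 with a pseudocount of 1 CPM, and P7 lateral Kölliker's organ cells (13) gave 8 with a stricter gate. With pooled CPM, the ratios over all cells were 0.584 at E14 and 2.08 at P7 for Col9a1 to Col9a2, 0.519 and 0.784 for Col9a3 to Col9a2, and 2.75 and 0.648 for Col11a1 to Col11a2.

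Same-numbered libraries of different ages had correlations of -0.283 to 0.112 in their deviations from the age means over 8981 genes. Pairs of different number ran from -0.262 to 0.291. Deviations at an age of 2 libraries mirror each other, so this check does not settle whether same-numbered libraries share more than a number. With the replicate number as a block, 15 of 48 calls that could be recomputed were lost, and all cells from P1 to P7 had 3 collagens called in place of 8.

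Leaving out each library in turn gave these numbers of collagens called: 11 to 12 for E16 hair cells, 6 to 9 for E16 interdental cells, 7 to 7 for E16 lateral floor cells, 8 to 9 for E16 medial Kölliker's organ cells, 9 to 9 for E16 prosensory cells, 12 to 13 for P1 Deiters' cells, 7 to 7 for P1 Deiters' cells against inner pillar cells, 12 to 14 for P1 hair cells, 7 to 8 for P1 inner phalangeal cells, 8 to 9 for P1 inner pillar cells, 8 to 10 for P1 interdental cells, 12 to 14 for P1 lateral Kölliker's organ cells, 11 to 11 for P1 lateral floor cells, 5 to 11 for P1 medial Kölliker's organ cells, 0 to 3 for all cells from E14 to E16, 3 to 8 for all cells from E16 to P1, 3 to 12 for all cells from P1 to P7, 0 to 3 for hair cells from E14 to E16, 0 to 1 for hair cells from E16 to P1, 0 to 3 for hair cells from P1 to P7, 0 to 5 for interdental cells from E14 to E16, 2 to 6 for interdental cells from E16 to P1, 0 to 0 for lateral floor cells from E14 to E16, 3 to 10 for lateral floor cells from E16 to P1, 0 to 0 for medial Kölliker's organ cells from E14 to E16, 0 to 8 for medial Kölliker's organ cells from E16 to P1, 0 to 1 for sensory supporting cells from E14 to E16, 2 to 7 for sensory supporting cells from E16 to P1, 1 to 5 for sensory supporting cells from P1 to P7. The pathway genes called ran from 0 to 6 for all cells from E14 to E16, 8 to 21 for all cells from E16 to P1, 6 to 18 for all cells from P1 to P7. The ratios over all cells ran from 2.90 to 2.92 for Col11a1 to Col11a2 at E14, 2.58 to 3.06 for Col11a1 to Col11a2 at E16, 0.928 to 0.968 for Col11a1 to Col11a2 at P1, 0.607 to 0.623 for Col11a1 to Col11a2 at P7, 0.0184 to 0.02 for Col1a1 to Col1a2 at P7, 1.38 to 1.93 for Col4a1 to Col4a2 at E14, 1.84 to 2.02 for Col4a1 to Col4a2 at E16, 1.43 to 1.59 for Col4a1 to Col4a2 at P1, 1.58 to 1.61 for Col4a1 to Col4a2 at P7, 0.547 to 0.574 for Col9a1 to Col9a2 at E14, 0.476 to 0.549 for Col9a1 to Col9a2 at E16, 1.05 to 1.32 for Col9a1 to Col9a2 at P1, 2.17 to 2.34 for Col9a1 to Col9a2 at P7, 0.498 to 0.510 for Col9a3 to Col9a2 at E14, 0.586 to 0.630 for Col9a3 to Col9a2 at E16, 1.04 to 1.10 for Col9a3 to Col9a2 at P1, 0.826 to 0.828 for Col9a3 to Col9a2 at P7. Of 185 called values that could be recomputed with a library left out, 52 lost the call in at least 1 such fit.

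Some classes rest on few cells: the E14 hair cells, P1 and P7 inner pillar cells and P7 Deiters', glial and mesenchymal cells number 23 to 86 a library, and leaving out a library was not possible for region comparisons with 2 libraries. P7 inner pillar cells could not be fitted without cells of over 3000 genes. Across the settings the median log2 difference over all genes ran from -0.245 to -0.0313 in interdental cells from E14 to E16 and from -0.221 to -0.0202 in sensory supporting cells from P1 to P7.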
